A study of Mus musculus with 2 samples.

Results

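The sites described here are the open chromatin sites of the mouse adrenal gland that lie inside introns and away from any transcription start site (TSS). They were chosen as the DNase-seq peaks whose centre falls inside a protein-coding gene, in no annotated exon and over 1 kb from every annotated TSS. In replicate 1 they numbered 58433 of 157595 peaks (37.1%), and in replicate 2 they numbered 61432 of 166206 (37.0%). DNase-seq maps where the nuclease DNase I cuts chromatin, so that accessible DNA appears as a peak of cuts. The tissue was the whole adrenal gland of female B6CASTF1/J mice, an F1 hybrid strain, at an age of 36 days; the labels name no treatment. The study had 1 group of 2 libraries, called biological replicates 1 and 2. The labels number the animals differently but give both the same donor record. Whole glands hold cortex, medulla, capsule, vessels and blood cells, so that a low peak can come from few cells or from little opening per cell, which cannot be told apart here.

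Introns are removed from the transcript after it is copied, but their DNA can hold enhancers, which are stretches where transcription factors bind and raise the activity of promoters, often those of the host gene. The first intron lies next to the promoter and is often the longest of a gene. In the adrenal cortex, genes of steroid hormone synthesis are controlled by the nuclear receptor SF-1 (Nr5a1), and the pituitary hormone ACTH acts through cyclic AMP and the factors that bind cyclic AMP response elements (CRE). CTCF is a zinc finger protein that holds chromatin loops in place, and AP-1 is a dimer of Fos and Jun proteins found at enhancers of many tissues.

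The central 150 bp of 10 sites are printed here, because they show the sequence of the tallest sites, of sites in adrenal genes and of sites whose consensus letters lie under a footprint. All are in lower case, 5′ to 3′ on the plus strand of mm10, from the RefSeq copy of GRCm38.p6, which is the reference and not the sequence of the hybrid mice. Capitals mark matches on either strand to the consensuses named below. The first lines give the tallest pair of sites that both libraries share in first introns and the tallest shared site in later introns, by the lower of the 2 heights.
Il31ra, chr13:112578166-112578315: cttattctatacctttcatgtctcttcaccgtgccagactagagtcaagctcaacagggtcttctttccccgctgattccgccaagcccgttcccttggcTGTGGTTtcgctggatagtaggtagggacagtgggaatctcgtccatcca
Nr1d1, chr11:98773876-98774025: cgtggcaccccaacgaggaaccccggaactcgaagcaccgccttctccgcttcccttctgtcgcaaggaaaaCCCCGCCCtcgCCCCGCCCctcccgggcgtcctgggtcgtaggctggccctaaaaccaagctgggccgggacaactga
Mid1, chrX:169998006-169998155: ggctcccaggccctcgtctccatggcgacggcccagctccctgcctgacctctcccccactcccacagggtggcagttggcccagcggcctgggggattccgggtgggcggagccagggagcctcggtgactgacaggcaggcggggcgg
Those of Il31ra and Nr1d1 are in first introns, and that of Mid1 is in a later one. The capitals are a RUNX consensus (AACCACA) in Il31ra and a pair of SP and KLF consensuses (GGGCGGGG) in Nr1d1. None of the 21 consensuses searched was found in the window of Mid1.

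A second set shows the tallest shared site of the genes of steroid synthesis, of the zona glomerulosa and of the chromaffin cells.
Cyp11a1, chr9:58009086-58009235: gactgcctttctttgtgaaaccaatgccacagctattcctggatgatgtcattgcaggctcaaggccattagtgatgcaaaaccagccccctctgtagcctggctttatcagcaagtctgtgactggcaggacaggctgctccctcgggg
Cacna1d, chr14:30218226-30218375: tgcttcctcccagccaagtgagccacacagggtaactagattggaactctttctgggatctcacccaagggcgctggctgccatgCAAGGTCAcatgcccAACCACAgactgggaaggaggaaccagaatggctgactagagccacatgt
Gata3, chr2:9879626-9879775: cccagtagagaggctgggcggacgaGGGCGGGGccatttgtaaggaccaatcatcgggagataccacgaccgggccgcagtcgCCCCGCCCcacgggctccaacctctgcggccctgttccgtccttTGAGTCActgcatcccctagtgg
The site in Cyp11a1, which encodes the enzyme that opens steroid synthesis by cutting the side chain of cholesterol, held no match. The site in Cacna1d, a calcium channel subunit, held an SF-1 consensus (CAAGGTCA) and a RUNX consensus, neither under a footprint. The site in Gata3, a transcription factor of sympathetic and chromaffin cells, held a pair of SP and KLF consensuses that lay under footprints in both libraries and an AP-1 consensus (TGANTCA) that did not. The sites in Cyp11a1 and Gata3 lie inside the span of the gene but in no intron of a coding transcript.

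The last set shows the tallest shared site at which a given consensus lies under a footprint in both libraries. A footprint is a short stretch inside open chromatin that is protected from cutting. These sites were chosen after the values were seen.
Cuedc1, chr11:88164806-88164955: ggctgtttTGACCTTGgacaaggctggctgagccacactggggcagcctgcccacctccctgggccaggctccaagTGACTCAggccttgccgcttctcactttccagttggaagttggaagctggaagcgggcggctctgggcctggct
Adora3 and Tmigd3, chr3:105895386-105895535: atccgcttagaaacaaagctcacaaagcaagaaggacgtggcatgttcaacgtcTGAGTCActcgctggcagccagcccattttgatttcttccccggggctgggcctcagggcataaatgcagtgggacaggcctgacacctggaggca
Aldh2, chr5:121584296-121584445: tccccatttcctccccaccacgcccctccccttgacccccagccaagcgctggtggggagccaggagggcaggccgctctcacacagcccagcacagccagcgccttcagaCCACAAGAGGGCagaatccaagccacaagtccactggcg
Ralb, chr1:119492276-119492425: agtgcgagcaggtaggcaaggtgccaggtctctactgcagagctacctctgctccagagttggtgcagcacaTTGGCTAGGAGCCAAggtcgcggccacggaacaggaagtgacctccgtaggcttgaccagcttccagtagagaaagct
Cuedc1 carries SF-1 and AP-1 consensuses under footprints in both libraries, and its peak reached 10.3 in replicate 1 and 15.3 in replicate 2. Heights here and below are the authors' signal for a peak, with a scaling that the labels do not describe. The site in the overlapping genes Adora3 and Tmigd3, an adenosine receptor and its neighbour, carries an AP-1 consensus, with heights of 18.2 and 29.1. Aldh2, a mitochondrial aldehyde dehydrogenase, carries a CTCF consensus, with heights of 14.0 and 20.9. Ralb, a small GTPase, carries an NFI consensus, with heights of 7.18 and 12.3. All 4 of these sites are in first introns, between 9.21 kb (Aldh2) and 65.7 kb (Cuedc1) from the nearest upstream TSS of the host gene.

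A few facts bear on all the values. The libraries held 297594 and 298189 footprints with a median width of 10 bp. Where both libraries had an intronic site, replicate 2 was taller by a median of 0.30 on the log2 scale, against 0.27 between genes and 0.55 at promoters, so that an SD of a height includes that general shift. Of 8 marker genes of the cortex, 8 and 7 had a promoter peak in replicates 1 and 2 (Mc2r, the ACTH receptor, had none in replicate 2). Of 7 of the medulla, 5 and 6 had one. With 2 libraries and no second condition, an exact test of signs cannot give a p below 0.5, so that no p is printed. Peaks and genes of 1 library are not replicates.

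Intronic sites were denser than sites between genes. Eligible intron, meaning sequence of protein-coding genes in no exon and over 1 kb from any TSS, covered 917 Mb. It held 63.7 sites per Mb in replicate 1 and 67.0 in replicate 2, against 36.2 and 37.6 per Mb over 1389 Mb that lie in no gene. The ratio was 1.76 and 1.78, or 1.77 ± 0.016 (SD, n = 2). Exons away from promoters held 95.7 and 111 peaks per Mb, and sequence within 1 kb of a TSS held 298 and 317. Intronic sites therefore made up the largest class of peaks by number in both libraries, and the third of these 4 classes by density.

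First introns held more sites per Mb than later ones. A site was counted as first where it lay in the first intron of each coding transcript in whose intron it fell, as later where it lay in no first intron, and as mixed otherwise. The libraries had 16287 and 17382 first-intron sites, 35438 and 37009 later-intron sites, 4585 and 4844 mixed sites, and 2123 and 2197 in no coding intron. The density was 78.8 and 84.1 per Mb in first introns, 67.7 and 71.5 in mixed ones and 58.2 and 60.8 in later ones. The ratio of first to later was 1.35 and 1.38, or 1.37 ± 0.021 (SD, n = 2), which kept its direction in both libraries. By number along the gene, intron 1 held 79.2 and 84.3 sites per Mb, intron 2 held 64.6 and 69.1 and intron 3 held 59.5 and 63.4. From intron 4 to intron 10 the means over both libraries lay between 57.4 and 62.3 per Mb, and introns from number 11 on held 54.0 and 56.0.

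The excess in first introns went with nearness to a TSS of the gene. Within 1 to 2 kb of the nearest upstream TSS of the host gene, first introns held 178 and 197 sites per Mb and later introns 98.9 and 110. That is a ratio of 1.80 and 1.79, over 12.5 Mb of first introns and 4.09 Mb of later ones. The ratio was 1.5 and 1.47 at 2 to 5 kb, 1.27 and 1.29 at 5 to 10 kb, 1.20 and 1.18 at 10 to 20 kb and 1.07 and 1.09 at 20 to 50 kb. At 50 to 100 kb it had turned to 0.930 and 0.896, and beyond 100 kb it was 0.981 and 1.02, which does not differ from 1 in a common direction. First introns held 1396 and 1478 sites beyond 100 kb. The long gene model Gm20388, which runs over many other genes, held 415 and 475 first-intron sites at all distances, and its part in the far values was not tested. First introns thinned out with distance, to 45.2 and 47.8 sites per Mb beyond 100 kb. Later introns stayed between 64.1 and 71.8 per Mb from 2 to 100 kb and fell to 46.0 and 47.0 beyond. Within the band of 5 to 50 kb the overall ratio was 1.16.

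**Figure D1:**
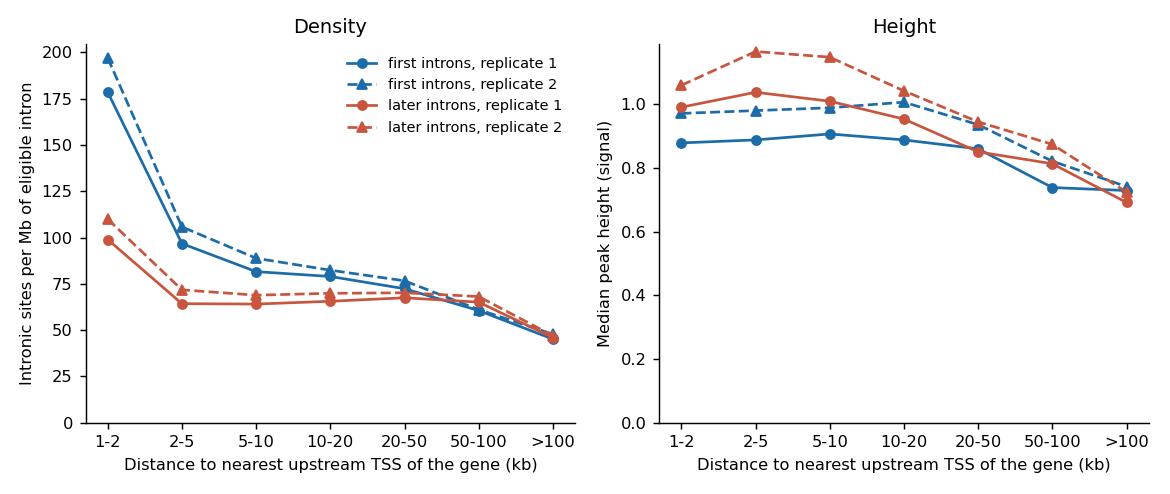
Density of intronic sites per Mb of eligible intron (left) and their median height in the authors' signal (right) by distance to the nearest upstream TSS of the host gene, for first and later introns; each line is 1 library. First introns start at 178 and 197 sites per Mb and meet later introns beyond 20 kb, while their median height is lower than that of later introns at 1 to 20 kb in both libraries.

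Most intronic sites were low. Their median height was 0.832 in replicate 1 and 0.909 in replicate 2, against 0.738 and 0.777 between genes, 0.906 and 1.01 in exons and 1.78 and 2.31 at promoters. In log2 terms intronic sites were 0.17 and 0.23 above sites between genes. That order did not hold for the tallest sites, since the 95th percentile was 3.73 and 5.37 in introns against 4.0 and 5.78 between genes. Among sites that both libraries share the difference from sites between genes was 0.10, and in the shorter, stricter peak list it was 0.08. When all peaks of a library were divided by height into 10 equal groups, the lowest group held 7.87% and 7.37% of intronic sites, but 14.8% and 16.2% of those between genes. The tallest group, from a height of 4.32 and 6.20 up, held 3.55% and 3.71% of intronic sites.

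First-intron sites had a slightly higher median than later-intron sites, 0.850 and 0.936 against 0.813 and 0.891, a log2 difference of 0.06 and 0.07. At equal distance the sign turned. The log2 difference of first minus later was −0.17 and −0.13 at 1 to 2 kb and −0.22 and −0.25 at 2 to 5 kb, and for the whole band of 5 to 50 kb it was −0.04. Farther out the sign varied, with 0.02 and −0.01 at 20 to 50 kb, −0.14 and −0.09 at 50 to 100 kb and 0.08 and 0.03 beyond. Heights did not jump at the limit of the definition. Sites in the 100 bp just beyond the limit of 1 kb had a median of 0.883 and 1.03, and peaks in the 100 bp on its other side had 0.888 and 1.01.

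Sharing between the libraries was about the same in first and later introns. A site was called shared when it overlapped any peak of the other library by at least 1 bp. Of intronic sites 78.8% and 75% were shared, against a background of 80.2% and 76.2% over all peaks of replicates 1 and 2. The share was 78.9% and 74.0% in first introns and 78.9% and 75.5% in later ones, a difference of −0.710 ± 1.07 percentage points (SD, n = 2) whose sign differed between the libraries. Sites between genes were shared in 76.0% and 73.4% of cases. At equal height that order mostly turned: intronic sites were shared less often than sites between genes in both libraries in 7 of 10 height groups, and more often in 2. Height moved with sharing far more than class did: in the lowest of the 10 height groups 30.2% and 26.7% of intronic sites were shared, in group 5 it was 84.9% and 77.8%, and in the tallest group 100% and 99.9%.

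Footprints showed the same dependence on height. At least 1 footprint of the same library lay in 75.6% and 74.6% of intronic sites, against 74% and 72.2% of all peaks, 72.1% and 69.4% of sites between genes and 74.0% and 72.1% of promoter peaks. The share ran from 16.5% and 13.3% of intronic sites in the lowest height group to 99.8% and 100% in the tallest. At equal height the order between introns and the space between genes was the other way round: intronic sites had the lower share in both libraries in 8 of 10 height groups and the higher in 1. Promoter peaks of middle height had far fewer, with 59.8% and 53.5% in group 7 against 93.3% and 91.7% of intronic sites. Overall 75.4% and 74.5% of first-intron sites and 75.7% and 74.8% of later-intron sites had a footprint, a difference of −0.28 and −0.27 percentage points that became 0.675 with a distance of 2 kb from the TSS. At equal height, first-intron sites were lower than later-intron sites in both libraries in 7 of 10 groups, for example 82.2% and 81.3% against 85.4% and 86.4% in group 5. In sharing they were also lower in both libraries in 7 of 10 height groups, and higher in both in 0.

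**Figure D2:**
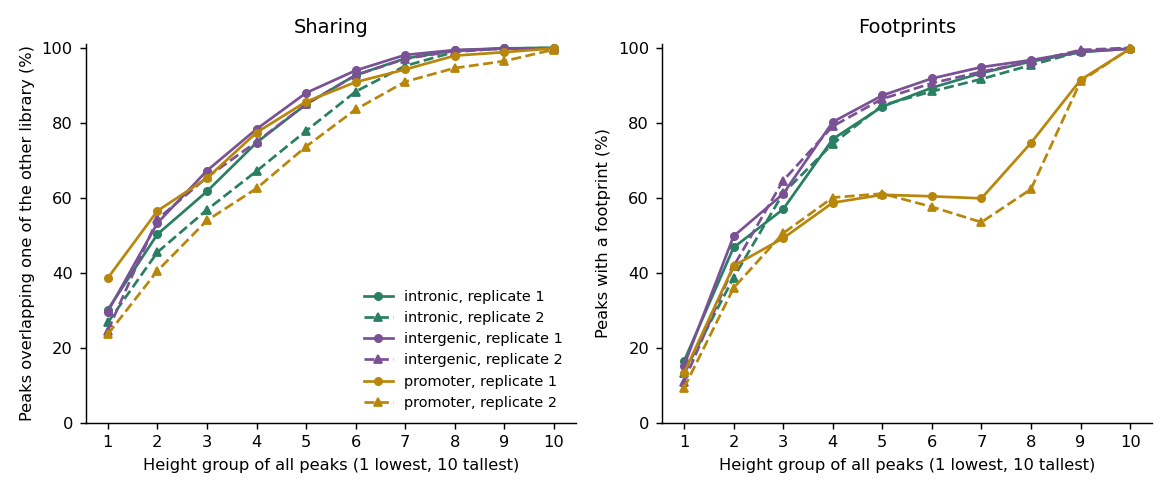
Percent of sites that overlap a peak of the other library (left) and percent with at least 1 footprint (right), by height group of all peaks of a library, from the lowest (1) to the tallest (10), for intronic sites, sites between genes and promoter peaks; each line is 1 library. Both shares climb steeply over the lower groups, and in group 7 a footprint lies in 93.3% and 91.7% of intronic sites, 94.8% and 93.6% of sites between genes and 59.8% and 53.5% of promoter peaks.

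What the sites share as sequence was examined with 21 short consensuses, searched on both strands in the central 150 bp of each site. The background was 5778788 windows of 150 bp tiled over eligible intron that touch no peak of either library. The windows of the sites had a median GC content of 51.3% and 52.0%, against 42% in those tiles, and shares of a consensus can move with GC content. Repeats covered 10.4% and 11.3% of their bases, against 29.1% of eligible intron. A match is a description of letters and not a binding site.

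AP-1, SF-1 and CTCF letters stood out from the tiles by size. An AP-1 consensus was in 20.1% and 17.3% of intronic sites against 4.32% of tiles, a ratio of 4.65 and 4.0. Sites between genes had it as often, at 20% and 16.9%, and promoter peaks at 6.00% and 5.35%. SF-1 was in 5.03% and 4.68% of intronic sites against 0.819% of tiles, a ratio of 6.15 and 5.72. The related NR4A consensus (AAAGGTCA), read by orphan nuclear receptors that angiotensin II and ACTH induce in the cortex, was in 2.37% and 1.82% against 0.787%. Both hold the letters AGGTCA and differ before them, so that 1 stretch cannot match both. CTCF was in 8.19% of intronic sites in each library against 0.836% of tiles, a ratio of 9.79 and 9.80.

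Rarer consensuses were also more frequent than in the tiles. NFI was in 0.127% and 0.151% of sites against 0.00701%, which is 74 and 93 sites. C/EBP (TTGCGCAA) was in 0.104% and 0.0928% against 0.00985%, CRE (TGACGTCA) in 0.388% and 0.412% against 0.0746%, and SP and KLF in 1.72% and 1.96% against 0.366%. The E-box of the clock (CACGTG), read by CLOCK and BMAL1, was in 3.29% and 3.57% against 1.60%, and ETS (CCGGAAG) in 1.11% and 1.21% against 0.369%. The consensus of GATA factors, which is AGATAAG, at 2.36% and 2.23% against 2.17% and RUNX at 3.78% and 3.8% against 3.68% lay near the tiles. FOX (TGTTTAC) at 1.66% and 1.49% against 2.27%, SOX (ACAATGG) at 1.82% and 1.78% against 2.35% and MEF2 at 0.993% and 0.820% against 1.31% lay below them. The ROR consensus was in 0.329% and 0.273% against 0.126%, TEAD in 2.63% and 2.56% against 2.02%, and the DR1 and PBX-MEIS consensuses each in under 0.1% of sites. The letters of FOX, SOX and MEF2 hold more A and T than G and C, while the sites are richer in GC than the tiles, and the part of base composition in their shares was not tested.

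**Figure D3:**
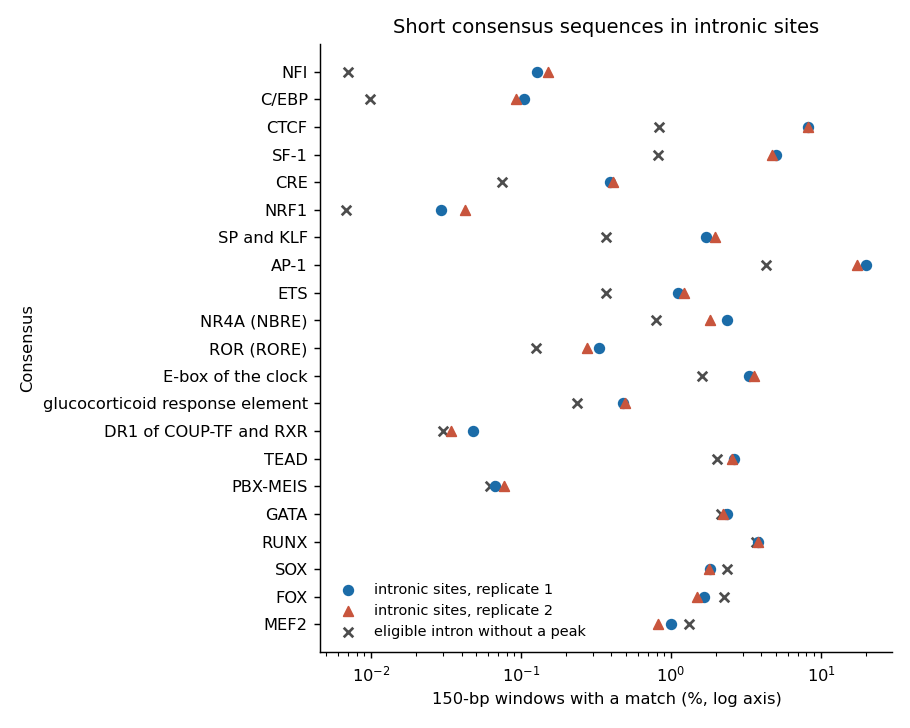
Percent of 150-bp windows with a match to each consensus (log axis) in intronic sites of replicates 1 and 2 (points) and in tiles of eligible intron without a peak (crosses). AP-1 reaches 20.1% and 17.3% against 4.32%, and FOX, SOX and MEF2 lie to the left of their crosses.

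Footprints covered different consensuses to different extents. Footprints covered 11.3% and 11.5% of the bases in the central windows of intronic sites. Of the NFI matches 70.3% and 68.8% lay under a footprint, and of CTCF matches 67.9% and 68.5%. The share was 56.6% and 50% for CRE, 52.5% and 49.1% for C/EBP and 36.1% and 39.7% for SP and KLF. SF-1 stood at 31.0% and 32.1%, the E-box at 29.8% and 30.6% and AP-1 at 22.3% and 17.8%. GATA, the glucocorticoid response element (by name) and FOX lay below the share of all bases, at 7.03% and 5.98%, 5.99% and 8.82%, and 4.31% and 3.58%. NRF1, also by name, had the highest shares, 88.9% and 82.1%, over no more than 18 and 28 matches.

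CTCF had the largest difference in share between first and later introns of the 21 consensuses. It was in 5.73% and 5.70% of first-intron sites and in 9.61% and 9.64% of later-intron sites, with 9.67% and 9.61% between genes. Others leaned to first introns, such as SP and KLF, with 2.23% and 2.31% of first-intron against 1.42% and 1.70% of later-intron sites, and ETS, with 1.38% and 1.46% against 0.951% and 1.05%. The CTCF gap held at every distance. At 1 to 2 kb from the nearest upstream TSS it was 3.72% and 3.57% against 7.18% and 7.35%. At 5 to 10 kb it was 5.53% and 5.85% against 13.3% and 13.5%, and beyond 100 kb 7.23% and 7.37% against 7.69% and 7.78%. It also held at equal height, from 3.81% and 3.94% against 5.21% and 5.08% in the lowest of 4 equal height groups to 8.86% and 9.42% against 17.4% and 17.9% in the tallest. Sites with a CTCF match had a median height of 1.27 and 1.59, against 0.804 and 0.874 without, and were shared in 90.3% and 85.8% of cases against 77.8% and 74.0%. With those sites left out, first-intron sites were still the lower ones at 1 to 2 kb (−0.12 and −0.13 on the log2 scale), 2 to 5 kb (−0.12 and −0.21) and 5 to 10 kb (−0.10 and −0.14). Repeats covered 19.7% and 22.1% of the central bases of sites with a CTCF match, against 9.56% and 10.3% without one.

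AP-1 moved with height less than CTCF did, and SF-1 moved little. From the lowest to the tallest of 4 height groups, AP-1 rose from 16.5% and 13.9% of sites to 22.9% and 19.9%. CTCF rose from 4.76% and 4.67% to 14.3% and 14.8%, and SF-1 stood at 4.67% and 4.14% against 4.78% and 4.54%. Sites with an AP-1 match had a median height of 0.934 and 1.05 against 0.804 and 0.883 without, and those with SF-1 had 0.850 and 0.936 against 0.832 and 0.909. AP-1 sites were shared in 79.8% of cases in replicate 1 and 85.6% in replicate 2, against 78.5% and 72.7% without, so that the gap was far wider in replicate 2. By distance AP-1 was least frequent at 1 to 2 kb from the nearest upstream TSS. It was there in 12.5% and 10.2% of first-intron sites and 12.1% and 10% of later-intron sites.

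**Figure D4:**
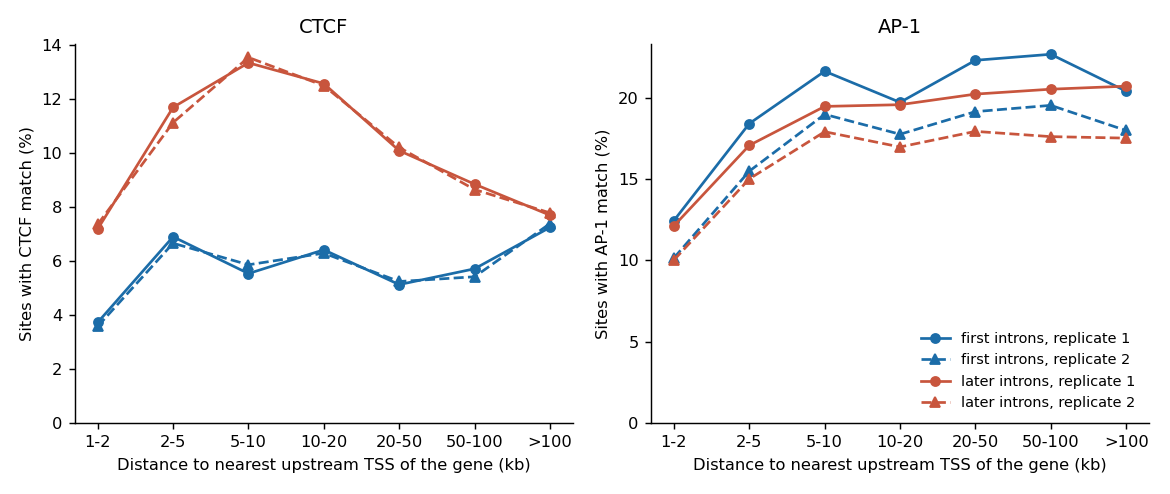
Percent of first-intron and later-intron sites with a CTCF consensus and with an AP-1 consensus by distance to the nearest upstream TSS of the host gene; each line is 1 library. The CTCF lines of later introns lie above those of first introns at every distance and peak at 13.3% and 13.5% at 5 to 10 kb, and AP-1 is lowest at 1 to 2 kb in both classes, at 12.5% and 10.2% in first introns.

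Sites were spread unevenly over genes. Of 18398 protein-coding genes with at least 1 kb of eligible intron, 10371 had a site in both libraries, which is 56.4%. No site was found in 40.1% and 39.2% of them, 1 site in 17.4% of each library, 2 to 5 in 25.8% and 26.0%, 6 to 20 in 14.2% and 14.6%, and more than 20 in 2.48% and 2.86%. The 1839 genes with most sites, or 10% of them, held 56.3% and 56.4% of sites. Genes with more eligible intron have more room for sites, and the part of length in that share was not tested. Among 12055 genes with at least 10 kb of eligible intron the median was 0.0585 and 0.0605 sites per kb and the 90th percentile 0.172 and 0.185. Across those genes, which are not independent replicates, sites per kb of the libraries gave a Spearman rho of 0.869 and a Pearson r of 0.864, as a description. Of all intronic sites 2.70% and 2.73% lay in more than 1 gene and counted for each.

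Genes with a promoter peak had more intronic sites. A promoter peak was any peak that reached within 1 kb of a TSS of the gene. A peak with its centre farther out can thus count both as promoter peak and as intronic site. In Cabp1 the promoter peak and the tallest intronic site had the same heights, 11.6 and 16.6. The part of such peaks in the values below was not tested. Where no peak touched the promoter of the host, in 4794 and 4632 genes, eligible intron held 38.3 and 40.1 sites per Mb. Among genes with a promoter peak it held 53.2 and 54.3 per Mb where that peak was in the lowest of 3 height groups, 82.1 and 87.0 in the middle group and 80.0 and 83.8 in the tallest. At least 1 site was found in 31.7% and 33.1% of genes without a promoter peak, and in 70.8% and 70.4%, 69.0% and 70.1%, and 69.5% and 70.1% of the 3 groups. Genes without a promoter peak also had less eligible intron, a median of 8.91 and 8.77 kb against 21.2 to 25.2 kb.

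The genes with the most sites per kb were named by a rule that asked for at least 10 kb of eligible intron and at least 5 sites in each library, met by 3310 genes. Kcnk3, a potassium leak channel of the zona glomerulosa (chr5:30588170-30625271), stood first, with 18 and 40 sites, all in its first intron, in 32.7 kb. That is 0.550 sites per kb in replicate 1 and 1.22 in replicate 2, or 0.886 ± 0.475 (SD, n = 2), the widest gap between libraries in counts among the 15 genes. All 18 sites of replicate 1 overlapped a peak of replicate 2, but only 16 of the 40 of replicate 2 overlapped one of replicate 1. The tallest of them, at chr5:30614321-30614500 and 26.2 kb from the nearest upstream TSS, reached 6.15 and 9.70 and held an SF-1 consensus. Among all sites of the zona glomerulosa genes 5.26% and 5.44% held that consensus, near the 5.03% and 4.68% of all intronic sites.

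Il4ra, Thra and Nfic had the same kind of gap between libraries. Il4ra, a receptor subunit for interleukin 4, had 5 and 19 sites, Thra, a thyroid hormone receptor, had 8 and 18, and Nfic, a factor of the NFI family, had 17 and 31. Hoxb3, a homeobox factor, had 6 and 11 sites, which were low, with a median height of 0.467 and 0.406. In each of these 5 genes, Kcnk3 included, replicate 2 had more sites than replicate 1. Why these introns held more peaks in replicate 2 was not tested.

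The other genes of the 15 had counts that lay close in both libraries. Cavin1, a coat protein of caveolae, had 8 and 10 sites in 10.6 kb, or 0.758 and 0.947 per kb. Slc27a1, a transporter of long-chain fatty acids, had 9 in each library, or 0.609 per kb, with a tallest site of 10.1 and 18.2. Rara, a retinoic acid receptor, had 17 and 21 sites, and its tallest reached 14.7 and 24.1. Sdc3, a cell surface proteoglycan, had 13 and 13, all in its first intron, and Igfbp5, a binding protein of insulin-like growth factors, had 5 and 6, also all in the first.

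Bmf, a BH3-only protein of the cell death pathway, had 7 sites in each library, all in later introns and all shared. They were also tall, with a median height of 4.45 and 8.87. Trp53i11 had 6 and 7 sites, Hspb8, a small heat shock protein, 6 and 8, Txn2, the mitochondrial thioredoxin, 5 and 6, and Cabp1, a calcium-binding protein, 12 and 10. The highest value of replicate 1 among the 15 was thus that of Cavin1 and that of replicate 2 that of Kcnk3.

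**Figure D5:**
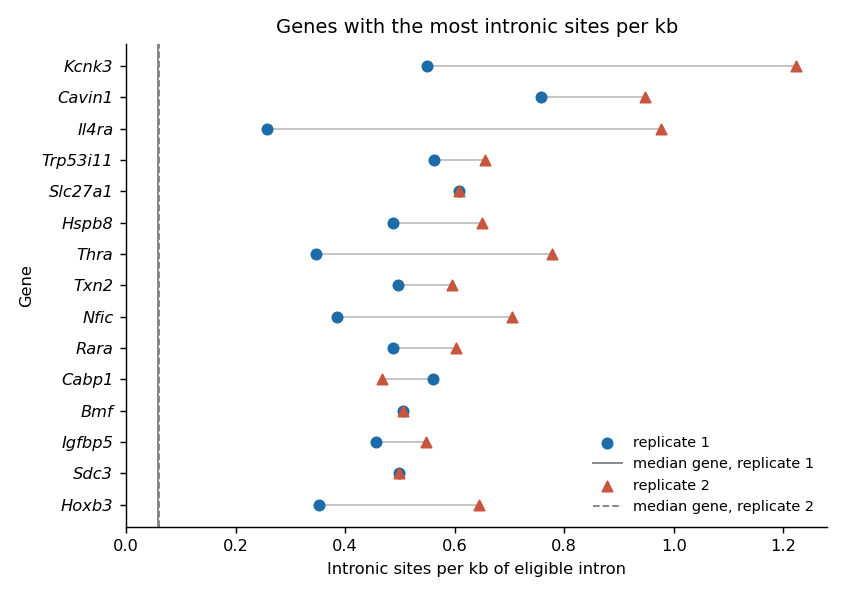
Intronic sites per kb of eligible intron in the 15 densest genes, with 1 point per library joined by a line and the median gene of each library as a vertical line. Kcnk3 spans 0.550 to 1.22 sites per kb and Il4ra 0.257 to 0.976, while Slc27a1, Bmf and Sdc3 have equal values in both libraries.

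By number, the longest gene models led. Gm20388, an annotated model of 3793 kb of eligible intron on chromosome 8 that runs over many other genes, held 527 and 602 sites, and the Fgfr2 model of 2678 kb held 246 and 248. Gm37240, with 1321 kb, had 103 and 102. Sites in such models also count for the genes they span, such as Gse1 in Gm20388. Restricting the sites to those inside 1 gene changed the ratio of first to later introns by less than the SD over libraries. That restriction keeps sites that lie in such a model alone, so that the part of these models in the ratio was not tested. Zfhx3, a homeobox and zinc finger factor, had 82 and 105 sites in 979 kb, and Rora, a nuclear receptor that drives clock genes, had 83 and 93 in 719 kb. Gse1 had 72 and 84 in 335 kb, which made it the densest of these 10 at 0.215 and 0.251 per kb. Camta1 had 66 and 87, Auts2 73 and 76, Lrmda 77 and 65, and Cacna1c, a calcium channel subunit, 70 and 79.

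Some long introns held no site in either library. The 5 genes with most eligible intron and no site were Olfm3 (214 kb), Ptprq (195 kb), Gm3383 (177 kb), Lrriq1 (175 kb) and Kcnj3 (156 kb). Olfm3 and Lrriq1 had promoter peaks all the same, of 1.06 and 1.57 and of 2.11 and 3.52. Ptprq, Gm3383 and Kcnj3 had none.

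The tallest intronic sites lay in genes of mixed function, and many were GC-rich. In Mid1, a ubiquitin ligase on X, the site at chrX:169997941-169998220 reached 42.0 in replicate 1 and 76.3 in replicate 2, and a neighbour at chrX:169991161-169991480 reached 20 and 27.0. Mid1 lies across the boundary of the pseudoautosomal region in C57BL/6 mice, and the mapping of reads there was not tested. The site in Il31ra, an interleukin receptor, at chr13:112578161-112578320 reached 38.0 and 41.8, in the first intron and 2.42 kb from the nearest upstream TSS. Their windows, printed above, held 74.0% GC at Mid1 and 52.0% at Il31ra.

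Further tall sites lay in Nr1d1, Cry2, Mnt, Mxi1 and Itpkb. Nr1d1, a nuclear receptor that represses Arntl, had a first-intron site at chr11:98773781-98774120 of 29.1 and 40.8, 1.38 kb from the nearest upstream TSS. The SP and KLF letters of that site lay under footprints in both libraries. Cry2, a repressor of CLOCK and BMAL1, had a site of 20.5 and 33.1 in intron 3 (chr2:92423841-92424020) with an E-box. Mnt, a repressor that binds E-boxes with Max, had one of 23.0 and 34.4 at chr11:74832181-74832420 with an E-box and an SP and KLF match, both under footprints in both libraries. Mxi1, another partner of Max, had a site of 19.9 and 24.1 with a CRE. Itpkb, an inositol trisphosphate kinase, had one of 21.4 and 33.0 at chr1:180387541-180387760, 57.2 kb from the nearest upstream TSS. That site held a CRE under a footprint in both libraries. Others of the 12 were sites in E130114P18Rik (21.1 and 31.1), Nfib (19.7 and 26.3, with CTCF letters) and Gm20388 (19.5 and 32.2).

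Genes of steroid synthesis held many sites for their length. Of 14 genes of the list with at least 1 kb of eligible intron, 9 had a site in both libraries (64.3%, against 56.4% of all genes). Their median was 0.197 and 0.294 sites per kb, against 0.0383 and 0.0412 over all genes, and 9 and 12 of the 14 were above the median of all genes. Por, the reductase that feeds electrons to microsomal P450 enzymes, had 17 and 19 sites in 56.5 kb. Its tallest site, in intron 2, reached 7.74 and 7.80. Fdxr, the mitochondrial ferredoxin reductase, had 5 and 9 sites in 6.42 kb, all in later introns, with a median height of 3.72 and 3.34. Cyp11a1 had 6 and 8, or 0.373 and 0.498 per kb. Of these, 1 and 0 were first-intron sites and 1 and 2 later-intron sites, and the rest were mixed or in no coding intron. Hsd3b6 and Sult2a8 had none in either library. Of the 46 and 58 sites of the list, 1 in each library held an SF-1 consensus (2.17% and 1.72%). That share was 5.03% and 4.68% over all intronic sites, and 11.4% and 9.30% over the 44 and 43 sites of kidney genes.

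Genes of cholesterol supply lay closer to the rest. A site in both libraries was found in 11 of 17 (64.7%, against 56.4% of all genes), with a median of 0.0840 and 0.0951 per kb. Scarb1, the receptor for high-density lipoprotein, had 16 and 20 sites, of which 14 and 18 were in its first intron. Abca1, which exports cholesterol, had 12 and 10, and Osbpl8, an oxysterol-binding protein, had 6 in each. Hmgcs1 and Lss, enzymes of cholesterol synthesis, and Insig1, which restrains it, had no intronic site although their promoter peaks reached 17.6 and 25.1, 15.4 and 21.6, and 19.4 and 24.6.

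The zona glomerulosa, which makes aldosterone, was represented by 15 genes, of which 14 had a site in both libraries (93.3%, against 56.4% of all genes). These genes are long, with a median of 39.9 kb of eligible intron against 18.2 kb over all genes, and a longer intron has more room for a site. The median was 0.0779 and 0.130 per kb. Cacna1d had 33 and 28 sites in 427 kb, most of them in later introns, and its promoter peak was only 0.757 and 1.10. Cacna1h, the T-type calcium channel subunit of the same cells, had 12 and 19, all in later introns. In the X-zone, an inner layer of the young mouse cortex, all 4 genes had sites. Thrb had 31 and 26 in 361 kb of eligible intron and Pik3c2g 15 and 13 in 313 kb. Cyp2f2, a short gene, had 2 in each library in 8.15 kb.

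Transcription factors and cyclic AMP genes also had sites in most members. Among adrenal transcription factors 13 of 15 had a site in both libraries (86.7%, against 56.4% of all genes and the same 13 of 15 among genes of central neurons), with a median of 0.107 and 0.199 per kb. Their median eligible intron was 35.1 kb, against 18.2 kb over all genes. Rxra, a partner of nuclear receptors, had 18 and 20. Among genes of cyclic AMP signalling 22 of 23 had one in both (95.7%), with a median of 0.0899 per kb in each library. Their introns are far longer than those of all genes, and their pooled density of 0.0711 and 0.0756 per kb was near the 0.0639 and 0.0671 of all genes. The phosphodiesterases Pde4d, Pde10a and Pde11a, which break down cyclic nucleotides, had 71 and 68, 44 and 61, and 34 and 28 sites. The tallest site of Pde4d reached 8.40 and 13.3 and held a CRE.

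Chromaffin cell genes were the adrenal list with fewest sites per kb. A site in both libraries was found in 13 of 22, a share of 59.1% that is near the 56.4% of all genes, with a median of 0.0230 and 0.0277 per kb, below that of all genes. Cacna1a, a calcium channel subunit, had 17 and 20, Ddc, the decarboxylase of dopamine synthesis, had 15 and 14, and Syt1, a calcium sensor of vesicle release, had 15 and 14. No site was found in Chga, Chgb, Isl1, Npy, Penk, Phox2a, Scg2 or Scg3, all of which had a promoter peak in both libraries. Most of these are short genes, from 2.02 kb of eligible intron in Scg2 to 10.6 kb in Chgb, with Scg3 at 36.0 kb.

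Clock genes and steroid receptors completed the hormone-related lists. Of the clock genes 16 of 17 had a site in both libraries (94.1%, against 56.4% of all genes), with a median of 0.207 and 0.154 per kb, and 16 and 15 of the 17 lay above the median of all genes. Their median eligible intron was 29.7 kb, against 18.2 kb over all genes. Beside Rora, Npas2 had 20 and 21 sites and Arntl, which encodes BMAL1, 17 and 15. Per1, a repressor of the clock, had a first-intron site of 19.1 and 31.0 at chr11:69097041-69097260 with a CRE, a TEAD consensus (GGAATGT) and a glucocorticoid response element. Of the steroid receptors and cofactors, which have a median of 98.7 kb of eligible intron, 14 of 15 (93.3%) had a site in both. Fkbp5, a chaperone of the glucocorticoid receptor, had 16 and 21. Esr1, the estrogen receptor alpha gene, had 30 and 26, and Hsd11b2, the enzyme that inactivates corticosterone, had none.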

How the data were processed

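DNase-seq of 2 adrenal gland libraries of 1 group was analysed. Per the labels, all files are on mm10. No source used here gives the aligner, the peak caller, its thresholds or the scaling. The authors' peak heights are a signal, and the p-value column of the deposited footprint lists was constant at 0.01 and not used for ranking. The longer peak list of each library was used, as deposited. The number of reads is not analysed here, so no counting interval is given.

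Genes came from the basic set of GENCODE M21 (GRCm38.p6), with 21938 protein-coding genes, and sequence from RefSeq GRCm38.p6. Sites were assigned by their centre, footprints by theirs, and sharing required 1 bp of overlap. Distance within a gene was measured to the nearest upstream TSS of a coding transcript of the host. Density is the number of sites over eligible, gap-free sequence. All 291 symbols of 20 lists were found in the annotation. The scripts (Python 3.11.15 with pandas 2.3.3, numba 0.67.0, numpy 2.4.6, matplotlib 3.10.9 and scipy 1.17.1) were tested on simulated data.

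Named genes were the 15 densest, the 10 with most sites, the 12 tallest shared sites, for each list the 3 genes with most sites and those without a site, and the 5 genes with most eligible intron and no site. Some of these are not reported here. The sites, lists and tests were chosen with earlier results of these data known. The labels do not say whether the replicates share a source beyond the stock, so that an SD may be partly technical.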

Additional observations from a re-analysis of the deposited data

How the results depend on the processing

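The values were recomputed under other settings, 1 choice at a time. The annotation of all transcripts was added after seeing the data. Of the values 65 moved by less than the SD over libraries (or, for counts, less than 1.5 times), 32 by more and 6 changed sign. The settings that leave out 1 library are part of this tally. With 2 libraries such a value, unless it is a count, always lies within the SD of the mean, so that those settings say nothing on stability. The percent of peaks that are intronic sites, 37.0, became 34.4 in the shorter peak list, 34.1 at 2 kb from the TSS, 35.9 with the whole peak in no exon, 36.0 inside 1 gene, 34.0 above the median height and 33.7 with all transcripts. The density ratio of first to later introns became 1.33, 1.26, 1.43, 1.16 at 5 to 50 kb, 1.43 above the median height and 1.34 with all transcripts, the first 3 in the shorter list, at 2 kb and with the whole peak in no exon. The log2 height difference of first minus later introns, 0.07, became 0.0900 with the whole peak in no exon, 0.0590 with 1 transcript per gene, 0.0745 inside 1 gene, −0.0419 at 5 to 50 kb, 0.0565 among shared sites and 0.0910 with all transcripts. That of intronic minus intergenic sites, 0.20, became 0.0831 in the shorter list and 0.10 among shared sites. The footprint difference of first minus later introns, −0.275 percentage points, became −2.37 in the shorter list, 0.675 at 2 kb, 0.0996 with the whole peak in no exon, −0.529 with 1 transcript, −1.33 at 5 to 50 kb, −2.72 above the median height, −1.10 among shared sites and 0.334 with all transcripts. That of intronic minus intergenic sites, 4.37, became 0.120 in the shorter list, −1.50 above the median height and 1.20 among shared sites. Of the 15 densest genes, 8 were shared with the shorter list, 9 above the median height and 6 with at least 20 kb of intron. SF-1 letters became 5.12% when the whole peak was searched, and AP-1 letters 20.7% in the shorter list and 21.1% above the median height. The cause of these moves was not tested.

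Leaving out 1 library in turn gave 37.0 to 37.1 percent intronic, a density ratio of 1.35 to 1.38, height differences of 0.06 to 0.07 and 0.17 to 0.23, a sharing difference of −1.46 to 0.0446, footprint differences of −0.283 to −0.267 and 3.49 to 5.25, and 10 to 11 of the 15 densest genes. No paired analysis was possible because there is 1 group. Low sites are the least certain, since the lowest of 10 height groups was shared in 30.2% and 26.7% of cases; the number of reads was not analysed, so that the part of depth in this was not tested.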

Other observations

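Markers of other cell types also had intronic sites in these whole glands. Of the endothelial genes 12 of 16 had a site in both libraries (75%, against 56.4% of all genes), with a median of 0.0905 and 0.0787 sites per kb. Pecam1, an adhesion molecule of vessel walls, had 13 and 19 sites, the tallest of 7.18 and 12.6, and Erg, an endothelial ETS factor, had 21 and 18. Of the macrophage genes 9 of 13 (69.2%) had one. Cx3cr1, the fractalkine receptor, had 15 and 19 sites, up to 8.39 and 11.9, with no promoter peak in either library. Its annotated span is long, with 125 kb of eligible intron, and the tallest site lay 66.1 kb from the nearest upstream TSS. Whether these sites are open in macrophages was not tested. Of the capsule and stroma genes 10 of 13 (76.9%) had one, and Ptch1, the hedgehog receptor, had 13 and 12. Lymphocyte genes had sites in 5 of 12 (41.7%), below the share of all genes, and Cd3e, Cd3g, Cd79a, Cd8a, Ms4a1 and Zap70 had none. Among Schwann and sustentacular cell genes it was 5 of 9 (55.6%), near that share, with none in Cdh19, Erbb3 or Sox10. These lists differ in length. Median eligible intron was 36.4 kb for endothelium, 30.4 kb for macrophages, 28.7 kb for capsule and stroma, 14.0 kb for lymphocytes and 7.97 kb for Schwann cells, against 18.2 kb over all genes. Pooled density of the lymphocyte genes was 0.0566 and 0.0711 per kb, against 0.0595 and 0.0751 for macrophage genes and 0.0639 and 0.0671 over all genes.

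Lists of tissues outside the adrenal gave mixed values. A site in both libraries was found in 7 of 14 kidney genes, 7 of 12 liver genes, 8 of 10 muscle genes, 13 of 15 neuronal genes, 7 of 9 ovary genes and 6 of 10 adipocyte genes, against 56.4% of all genes. The median sites per kb lay above the 0.0383 and 0.0412 of all genes in both libraries for liver (0.0558 and 0.0751), muscle (0.0672 and 0.0699), ovary (0.0613 and 0.0511) and adipocytes (0.0868 and 0.0785). It lay below in both for kidney (0.0139 and 0.0308), and was 0.0325 and 0.0464 for neurons. Muscle and neuronal genes are long, and pooled over each list, where the longest genes weigh most, their density was 0.0234 and 0.0240 and 0.0260 and 0.0271 per kb, against 0.0639 and 0.0671 over all genes. Dmd, the dystrophin gene, had 23 and 28 sites in 2229 kb. Slc12a3, a sodium chloride transporter of the kidney, had 10 and 8 in 31.6 kb with no promoter peak. Cubn, an endocytic receptor of the kidney, had 17 and 20, also with none.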
